A study of Homo sapiens with 3 samples.

Results

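The genes of the translation initiation factors were described in 3 RNA-seq libraries. Their rows were chosen by name: the gene name had to begin with EIF and a digit from 1 to 6. EIF4A3, which belongs to the exon junction complex, the eIF2 alpha kinases (names beginning EIF2AK) and names with a hyphen were left out. This gave 52 genes of the 39320 rows on the main chromosomes. By RefSeq, 51 of them were protein-coding and 1, EIF3IP1, was a transcribed pseudogene. The genes lay on 19 chromosomes.

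The study asked about splice variants of the RNA methyltransferase METTL3 in liver cancer. Its RNA-seq data are 3 libraries labelled as unmodified HepG2, a line derived from a human liver tumor, and they form 1 condition without treatment. Nothing in the labels states whether the replicates came from separate cultures, so the spread between them may be technical. The level is given as TPM, a share of transcripts that is scaled for gene length and to a total of 1000000 in each library. The tables give no read counts, and the depth was not estimated from the other units. Values after ± are SDs over 3 libraries.

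The libraries lacked the markers that define hepatocytes. All 8 genes of the hepatocyte list were below 1 TPM, and ALB, APOA1, APOB, SERPINA1 and FGB were listed at 0 in each library. The summed level of the list was 0.0571, 0.244 and 0.133 TPM in replicates 1, 2 and 3, and its most abundant gene was TTR at 0.118 ± 0.0812 TPM. In the epithelial list, KRT8 had 2609.6 ± 28.6 TPM and KRT18 2017 ± 102 TPM, whereas EPCAM had 0.030 TPM and CDH1 1.02 TPM on average. In the mesenchymal list, VIM had 694 ± 48.1 TPM and CDH2 27.1 ± 1.58 TPM, with 6.93 TPM for COL1A1 and 0.908 TPM for FN1. Of the blood markers, PTPRC was listed at 0 and HBB had 0.679 TPM. The samples are therefore called libraries labelled HepG2, and the levels below are not taken as levels of hepatocyte-like cells.

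Translation of most mRNAs begins at the cap. eIF4E binds the cap and joins the scaffold eIF4G and the helicase eIF4A, while eIF2 with GTP carries the initiator tRNA to the small ribosomal subunit, which eIF3, eIF1 and eIF1A hold ready for scanning. At the start codon eIF5 promotes GTP hydrolysis by eIF2, eIF5B joins the large subunit, and eIF2B reloads eIF2 with GTP. Cells restrain initiation by phosphorylating eIF2 alpha, which blocks eIF2B, and by 4E-BP proteins, which compete with eIF4G for eIF4E.

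Most of the factors were abundant. Among the 51 protein-coding members, 46 had at least 1 TPM in every library, compared with 59.5% of the 18741 protein-coding rows. At least 10 TPM in every library was reached by 42 of these members (82.4%), compared with 40.4% of the protein-coding rows, and at least 100 TPM by 26 (51%), compared with 7.17%. The median of the mean levels was 99.6 TPM over all 52 members. It was 123 TPM over the 47 members with a mean of at least 1 TPM, against 15.4 TPM over all 13753 genes with such a mean. The median of those 47 members lay at the 91.4th percentile of these expressed genes. The 52 genes added up to 10115, 9991 and 10055 TPM in replicates 1, 2 and 3, about 1% of all TPM in each library. Mitochondrially encoded genes took 19.9%, 20.2% and 20.2% of all TPM, which lowers the TPM of all other genes alike.

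**Figure D1:**
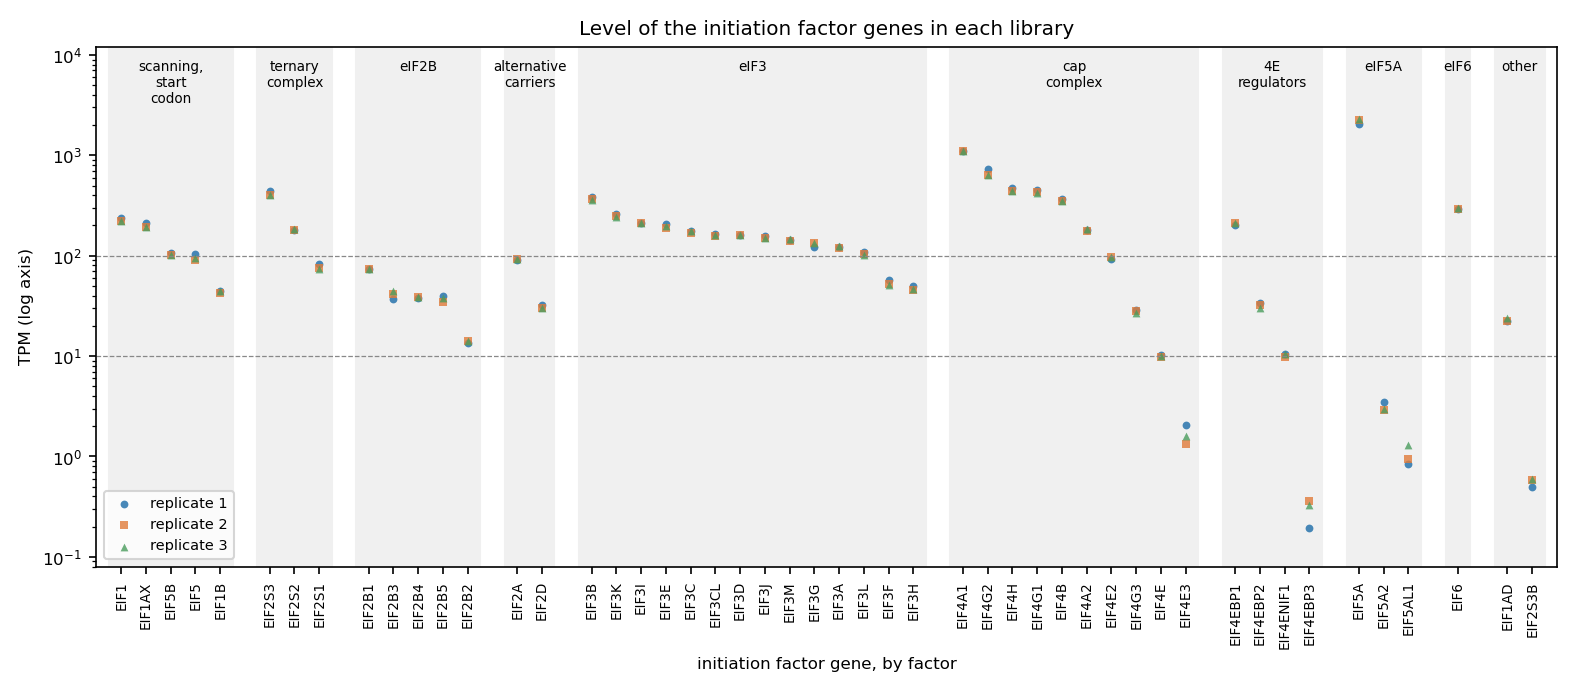
Level of each initiation factor gene in TPM (vertical log axis) in the 3 libraries, grouped by factor. Each gene has 1 point for each replicate and dashed lines mark 10 and 100 TPM; genes listed at 0 are not drawn. EIF5A lies highest, at 2044 to 2292 TPM, and EIF4E lies near 10 TPM.

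The signal was concentrated in a few genes. EIF5A, EIF4A1, EIF4G2, EIF4H, EIF4G1 and EIF2S3 made up 52.5% of the summed TPM of the members. By factor, the 11 genes grouped as cap complex held 33.1 ± 0.838% of that sum. These were the genes of eIF4A (EIF4A1, EIF4A2), eIF4B, eIF4H, eIF4E (EIF4E, EIF4E1B, EIF4E2, EIF4E3) and eIF4G (EIF4G1, EIF4G2, EIF4G3), grouped by family although not every relative forms the complex. The 15 eIF3 genes held 23.02%, 22.5% and 22.5% and the 3 eIF5A genes 20.2%, 22.7% and 22.8% in replicates 1, 2 and 3, so that eIF3 was ahead in replicate 1 only. Their means were 22.7 ± 0.290% and 21.9 ± 1.45%. The 3 genes of eIF2 and the 6 genes for scanning and the start codon held 6.71 ± 0.232% and 6.65 ± 0.243%. EIF6, the 4E regulators, eIF2B and the alternative tRNA carriers each held less than 3%. These shares depend on the unit. In coverage, which is the mean read depth over a gene and also a value per length, EIF5A alone held 9.97% of the summed signal of the members, against 21.9% in TPM. The share of the cap complex was highest in replicate 1 (34.1%, against 32.7% and 32.5%).

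**Figure D2:**
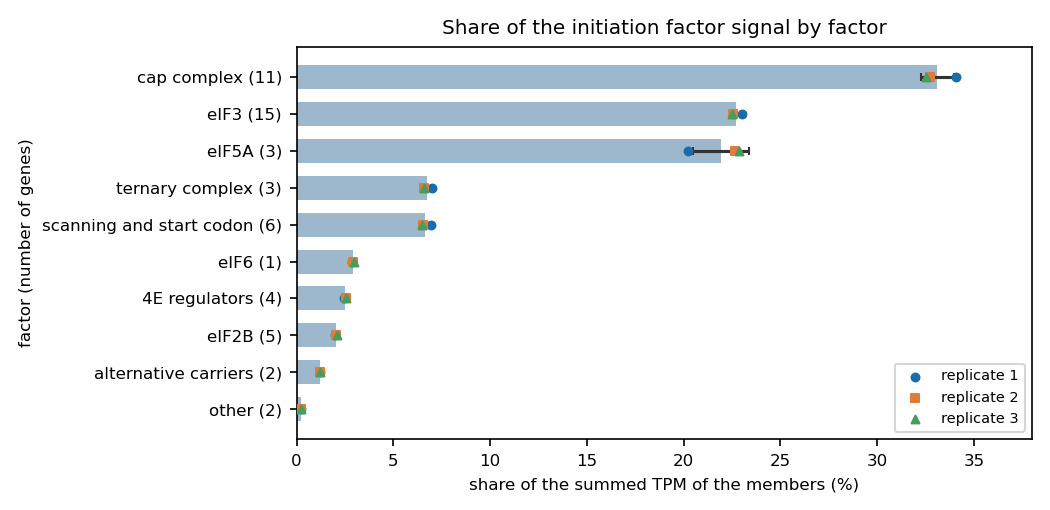
Share of the summed TPM of the 52 members (horizontal axis, %) held by each factor, with the number of its genes. Bars give the mean and error bars the SD over 3 libraries, and points the libraries; the cap complex has the largest share, 33.1%, and the order of eIF3 and eIF5A differs between the libraries. In coverage EIF5A has 9.97%.

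The subunits of eIF2, which binds the initiator tRNA, were not listed at like levels. EIF2S1, the alpha subunit that carries the regulatory phosphorylation site, had 82.0, 74.7 and 74.4 TPM in replicates 1, 2 and 3. EIF2S2, the beta subunit, had 179, 182 and 185 TPM. EIF2S3, the gamma subunit that binds GTP and the tRNA (chrX:24054956-24078810), had 444, 402 and 400.3 TPM. The order alpha, beta, gamma was the same in all 3 libraries with no overlap between them. The gamma to alpha ratio of TPM was 5.39 ± 0.0238, and that of beta to alpha 2.37 ± 0.158. EIF2S1 lies wholly within the row of GPHN on the same strand, which had 15.9 TPM on average.

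EIF2S3 has a relative on chromosome 12, EIF2S3B, which had 0.497, 0.577 and 0.591 TPM. Its MANE Select transcript, the agreed reference transcript, has 1 exon of 2636 bases, while its row in the tables spans 17243 bp. The coding sequences differed at 25 of 1416 bases (98.2% identity). Their first 60 coding bases in GENCODE v44 show how alike the genes are, with capitals where EIF2S3B differs.
EIF2S3 (exon 1 of 12, chrX:24054969-24055028, plus strand): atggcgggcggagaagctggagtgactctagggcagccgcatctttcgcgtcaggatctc
EIF2S3B (the only exon of that transcript, chr12:10505903-10505962, plus strand): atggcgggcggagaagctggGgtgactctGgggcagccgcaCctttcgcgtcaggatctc
These stretches differed at 3 bases. Of the stretches of 150 bases, the read length, 2.30% of the EIF2S3 and 3.06% of the EIF2S3B transcript also occurred elsewhere. EIF2S3 was listed far above EIF2S3B in every library.

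The genes of eIF2B, the exchange factor of eIF2, were lower than those of its substrate, although the highest eIF2B gene came close to EIF2S1. EIF2B1 (alpha) was the highest with 74.0, 74.3 and 73.3 TPM. EIF2B2 (beta) was the lowest by TPM with 13.6, 14.1 and 14.1 TPM, so that EIF2B1 had 5.31 ± 0.133 times its level. EIF2B4 (delta) and EIF2B5 (epsilon, the catalytic subunit) had 38.8 ± 0.646 and 37.3 ± 2.27 TPM, and their values overlapped. EIF2B3 (gamma) had 36.8, 42.0 and 45.0 TPM, the largest replicate range among the members with a mean of at least 10 TPM. In EIF2B3 the coverage per FPKM, a level scaled for gene length and total reads, was only 0.132 of the highest ratio in its library, so that its place depends on the unit. With coverage rescaled to a total of 1000000 per library, EIF2B3 had 8.72 ± 0.559 and EIF2B2 22.3 ± 0.524, and EIF2B3 was the lowest of the 5.

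EIF2A and EIF2D, which can bring initiator tRNA to the ribosome without eIF2, had 92.3 ± 1.60 and 30.9 ± 1.32 TPM. A row on the opposite strand, RASSF5, overlaps EIF2D over 41.9% of its length and had 2.97 TPM. Whether the levels were computed with strand information is not given in the sources used here, so reads from the overlap may have been counted for either gene, which was not tested.

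Among the factors for scanning and start codon choice, EIF1, which guards against initiation at wrong codons, had 237, 223 and 219.6 TPM. EIF1AX, the gene of eIF1A on the X chromosome, had 210.1, 192 and 194 TPM, lower than EIF1 in each library (ratio 0.877 ± 0.0143). EIF5B and EIF5 had 103 ± 2.76 and 96.4 ± 6.02 TPM. Their values overlapped between libraries, but within each library EIF5 was below EIF5B (ratio 0.939 ± 0.0334), and in coverage rescaled to the same total per library they did not overlap. EIF1B, a copy of EIF1 with 82.0% identity over 339 coding bases, was the lowest expressed gene of the group, with 44.8, 43.0 and 44.2 TPM. The EIF1 to EIF1B ratio was 5.15 ± 0.166.

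The eIF3 complex keeps the ribosomal subunits apart and binds eIF4G. Of the 15 genes with an EIF3 name, 14 were expressed, all but the pseudogene EIF3IP1. Their mean levels ran from 47.2 ± 2.30 TPM (EIF3H) to 371 ± 11.8 TPM (EIF3B), a 7.88 ± 0.239-fold difference within libraries. EIF3B, a scaffold subunit, was the highest in each library, with 384, 370.2 and 360.3 TPM. EIF3K followed with 259.6, 250.4 and 243 TPM. The SD over the 14 genes of log2(TPM + 1) was 0.78 ± 0.011, against 1.502 ± 0.016 over the 8419 genes that averaged 10 TPM or more. For comparison, it was 1.21 over the 3 eIF2 genes and 0.84 over the 5 eIF2B genes. In coverage the eIF3 value was 0.776. The eIF2B value is given in TPM only, where EIF2B1 (73.9 TPM) and EIF2B2 (13.9 TPM) were the extremes. It includes EIF2B3, whose place depends on the unit.

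The lowest eIF3 genes were EIF3H, with 49.8, 45.4 and 46.4 TPM, and EIF3F, with 57.8, 52.0 and 51.5 TPM. Both encode the subunits with an MPN domain, a grouping chosen after the values were seen. The 7 genes of subunits with a PCI domain had 104.6 (EIF3L) to 251 TPM (EIF3K), and the 5 others had 130.0 (EIF3G) to 371 TPM. EIF3H and EIF3F did not overlap with each other or with any other eIF3 gene in any library. EIF3D, the subunit that can bind the cap, varied least of the members with a mean of at least 10 TPM, with 159.7, 159.9 and 160.1 TPM.

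EIF3C and EIF3CL, a pair of copies on chromosome 16, were listed at 173 ± 5.39 and 161 ± 4.79 TPM, and their ratio was 1.07 ± 0.0270. All 2739 aligned coding bases were the same. The first 60 coding bases are given for both, as a read from this stretch fits both copies.
EIF3C (exon 2 of 21, chr16:28711687-28711746, plus strand): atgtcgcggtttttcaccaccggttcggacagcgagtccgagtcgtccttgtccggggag
EIF3CL (exon 2 of 21, chr16:28403559-28403618, minus strand): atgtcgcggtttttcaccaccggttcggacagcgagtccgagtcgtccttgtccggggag
Most reads of the copies cannot be told apart by sequence, so the level of each copy is uncertain.

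In the cap complex, the helicase gene EIF4A1 (chr17:7572706-7579006) had 1108, 1102 and 1098 TPM, a mean of 1103 ± 4.92 TPM. EIF4A2 (chr3:186783577-186789897), its close relative, had 179.5, 176 and 183 TPM. EIF4A1 was above EIF4A2 by 6.15 ± 0.128 times, with no overlap. The coding sequences were 77.3% identical, and the 60 bases around the codons of the DEAD box, the motif that names this helicase family, are shown with capitals where EIF4A2 differs.
EIF4A1 (exon 6 of 11, chr17:7577061-7577120, plus strand): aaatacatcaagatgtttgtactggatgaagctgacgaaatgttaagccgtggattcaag
EIF4A2 (exon 6 of 11, chr3:186786169-186786228, plus strand): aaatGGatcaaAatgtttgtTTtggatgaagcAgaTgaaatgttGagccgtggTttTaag
The stretches differed at 10 bases. No stretch of 150 bases, the read length, of either transcript occurred elsewhere. Of the stretches of 50 bases, 34.5% in EIF4A1 and 14.2% in EIF4A2 did. RefSeq names 13 EIF4A1 and 5 EIF4A2 pseudogene loci, and their part in these levels was not tested. EIF4A2 holds 6 rows of small RNAs within its bounds and EIF4A1 3, with up to 27.5 TPM (SNORD2).

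EIF4B and EIF4H stimulate eIF4A. EIF4H had 467, 443 and 439 TPM, and EIF4B had 366, 347 and 348 TPM. The TPM of EIF4B was below that of EIF4H in all 3 libraries (log2 ratio -0.35 ± 0.011). By coverage the order turned (log2 ratio 0.99 ± 0.012), so the order of these genes is not settled by these tables.

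The scaffold genes differed widely. EIF4G2, which encodes a relative of eIF4G that lacks the eIF4E-binding part, had 739, 635 and 643 TPM. Replicate 1 stood above the other libraries in this gene. EIF4G1, the main scaffold, had 454, 431 and 423 TPM, below EIF4G2 in each library. EIF4G3 had 28.7, 28.2 and 27.0 TPM, so that EIF4G1 was 15.6 ± 0.270 times as high.

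EIF4E, the cap-binding protein (chr4:98871684-98930637), was among the lowest expressed factors, with 10.3, 9.84 and 10.04 TPM. Its mean of 10.1 ± 0.244 TPM lay at the 38.99th percentile of expressed genes. EIF4A1 had 109.5 ± 2.36 times and EIF4G1 43.3 ± 1.01 times its TPM. In coverage the EIF4A1 to EIF4E ratio was 107 ± 2.64. However, 42.6% of all 150-base stretches of the EIF4E transcript also occurred elsewhere in the genome, and RefSeq names 5 EIF4E pseudogene loci. How reads with several matches were counted is not given in the sources used here, and their part in the low level of EIF4E was not tested.

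The relatives of EIF4E were EIF4E2 (eIF4E homologous protein, a repressor at the cap) with 91.7, 97.1 and 98.0 TPM, EIF4E3 with 2.05, 1.32 and 1.61 TPM, and EIF4E1B, an oocyte gene, listed at 0. In TPM, EIF4E was far below EIF4E2 in all 3 libraries, with a log2 ratio of -3.12 ± 0.080. In coverage it was slightly above it, with a log2 ratio of 0.24 ± 0.077. EIF4E2 had the lowest coverage per FPKM of the members measured, 0.0856 of the highest ratio, while EIF4E stood at 0.962. The order of EIF4E and EIF4E2 therefore depended on the unit, whereas the low level of EIF4E beside EIF4A1 did not.

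Among the genes that restrain eIF4E, EIF4EBP1 had 203, 211 and 214 TPM. EIF4EBP2 had 33.7, 32.1 and 30.2 TPM, and EIF4EBP1 was 6.56 ± 0.529 times as high. EIF4EBP3 had 0.196, 0.358 and 0.327 TPM and lies wholly within the read-through row ANKHD1-EIF4EBP3, which had 6.23 TPM on average. EIF4ENIF1, the carrier of eIF4E into the nucleus, had 10.3 ± 0.446 TPM and overlapped with EIF4E. The summed TPM of the 4E-BP genes was 22.9, 24.8 and 24.3 times the TPM of EIF4E, and in coverage the mean ratio was 24.9.

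The 4E-BPs and the scaffolds compete through the same short binding motif. Its codons are given in capitals for the scaffolds EIF4G1 and EIF4G3 and the inhibitors EIF4EBP2 and EIF4EBP3.
EIF4G1 (exon 13 of 33, chr3:184322847-184322891, plus strand): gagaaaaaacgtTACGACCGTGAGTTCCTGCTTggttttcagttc
EIF4G3 (exon 17 of 37, chr1:20895431-20895475, minus strand): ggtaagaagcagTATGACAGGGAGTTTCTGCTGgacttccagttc
EIF4EBP2 (exon 2 of 3, chr10:70419916-70419960, plus strand): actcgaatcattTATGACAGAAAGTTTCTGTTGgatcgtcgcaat
EIF4EBP3 (exon 2 of 3, chr5:140548908-140548952, plus strand): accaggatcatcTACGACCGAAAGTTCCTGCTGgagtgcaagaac
RNA levels were measured here, and neither the proteins nor the phosphorylation that releases 4E-BPs from eIF4E was.

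EIF5A (chr17:7306999-7312463), which helps ribosomes through difficult peptide bonds and was first named as an initiation factor, was the highest member by TPM. It had 2044, 2259.9 and 2292 TPM, the 99.8th percentile of expressed genes. Replicate 1 was the lowest, and the libraries did not overlap with those of EIF4A1. In rescaled coverage, EIF4A1 came first with 1655 ± 6.62 and EIF5A second with 1206 ± 94.6, and the share of EIF5A in the summed signal was 9.97% in place of 21.9%. Thus EIF5A was among the leading members by both units, but its rank and share depended on the unit.

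Its relatives were hardly expressed. EIF5A2 had 3.50, 2.87 and 2.97 TPM, and the intronless EIF5AL1 had 0.850, 0.946 and 1.30 TPM. The 20 codons around the site where a lysine is changed to hypusine, the modification that makes eIF5A active, are shown with capitals where a copy differs from EIF5A.
EIF5A (exon 2 of 6, chr17:7309741-7309800, plus strand): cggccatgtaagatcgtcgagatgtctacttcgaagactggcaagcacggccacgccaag
EIF5AL1 (its only exon, chr10:79512755-79512814, plus strand): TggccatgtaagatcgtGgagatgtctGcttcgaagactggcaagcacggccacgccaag
EIF5A2 (exon 2 of 5, chr3:170907642-170907701, minus strand): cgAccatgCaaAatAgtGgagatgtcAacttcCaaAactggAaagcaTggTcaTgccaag
EIF5AL1 differed from EIF5A at 3 and EIF5A2 at 12 of these 60 bases, and over the whole coding sequence the identities were 98.9% and 71.9%. The EIF5A to EIF5A2 log2 ratio was 9.06 ± 0.20 in TPM and 7.84 ± 0.25 in coverage.

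EIF6, which keeps the large ribosomal subunit from joining too early, had 291, 293 and 299 TPM. EIF1AD, named for its likeness to eIF1A, had 22.8 ± 0.927 TPM and overlaps BANF1 (467 TPM), on the opposite strand, by 139 bp. Of the 52 members, 5 were below 1 TPM in every library. Among these were EIF4EBP3 and EIF2S3B, and EIF4E1B and the pseudogene EIF3IP1 were listed at 0. In EIF4E1B and EIF3IP1, FPKM and coverage were 0 as well, so no signal was recorded, which does not exclude a very low level.

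In each of the 12 pairs compared within libraries, all 3 libraries had the same direction. An exact permutation test, two-sided and made by flipping the signs of the 3 library values, gave p = 0.25 for each pair, the smallest p that it allows, and 0.25 after Benjamini-Hochberg adjustment over the 12 pairs. The test therefore could not pass a threshold. The SD shows only how well a ratio repeated between libraries, and it does not cover the error of comparing different genes. EIF4E/EIF4E2 and EIF4B/EIF4H had small SDs and still turned in coverage. The largest ratio was EIF5A to EIF5A2, followed by EIF4A1 to EIF4E with a log2 ratio of 6.64 ± 0.028. EIF4EBP1 was above EIF4E by 4.25 ± 0.068 and EIF4A1 above EIF4G1 by 1.34 ± 0.046 on the log2 scale. EIF2A exceeded EIF2D by 1.55 ± 0.083 in TPM and by 2.98 ± 0.069 in coverage. These are values of log2((first + 1)/(second + 1)), which understate the ratio where a level is low.

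**Figure D3:**
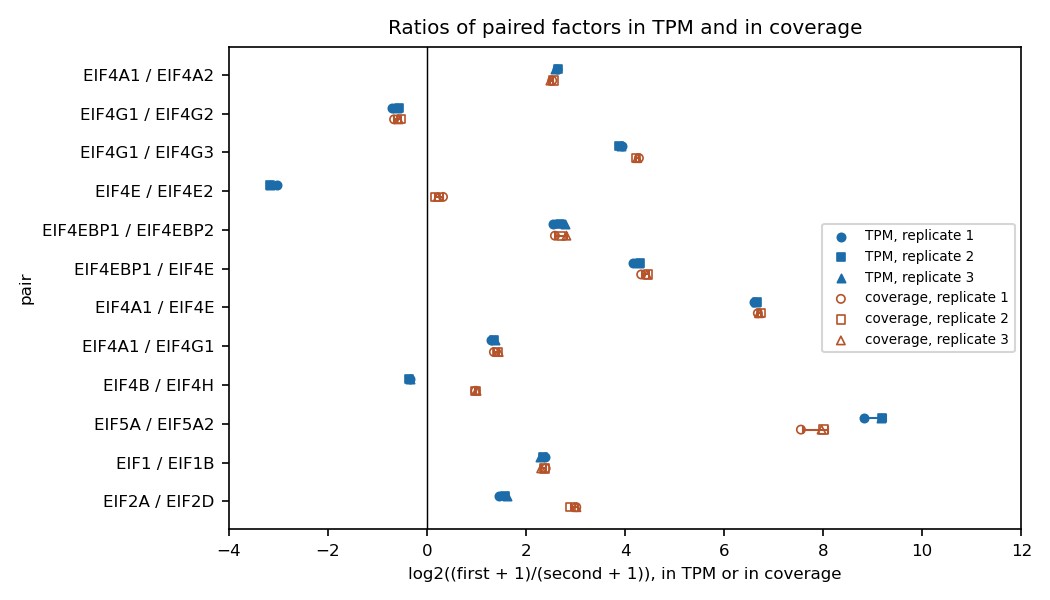
Ratio of the paired factors within each library as log2((first + 1)/(second + 1)) (horizontal axis), from TPM (filled) and from coverage (open). Points are the 3 libraries and error bars the SD; EIF4E/EIF4E2 and EIF4B/EIF4H lie on opposite sides of 0 in the 2 units, and the other 10 pairs lie on the same side.

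Both units are values per length from the same tables, so a gene's coverage per FPKM can be set against the highest ratio in its library. Of the 44 members with a mean of at least 10 TPM, 6 were below 0.5 of that ratio, compared with 27.7% of 8410 genes. They were EIF4E2 (0.0856), EIF2B3 (0.132), EIF2D (0.222), EIF5A (0.342), EIF4H (0.395) and EIF4ENIF1 (0.473). Each of these 6 ranked lower among the members by coverage than by TPM. The median ratio was 0.924 over the members and 0.792 over all these genes.

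The members varied little between replicates. The replicate range, the highest minus the lowest log2(TPM + 1), exceeded 0.5 in 0 of 44 members with a mean of at least 10 TPM, compared with 1.41% of 8419 genes, and exceeded 1 in 0, compared with 0.273%. No test stands behind these counts of 0. The coefficient of variation was under 5% in 34 of the 44 (77.3%), compared with 51.6% of the genes. Its median was 3.23% over the members and 4.88% over all these genes. Of the members, 26 averaged at least 100 TPM, and the 8419 genes were not matched to them for level. The part of level in these differences was not tested. The members with the largest ranges were EIF2B3 (0.28), EIF4G2 (0.22) and EIF5 (0.17). Among the members of lower level, the range was 0.40 in EIF4E3 and 0.31 in EIF5AL1.

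**Figure D4:**
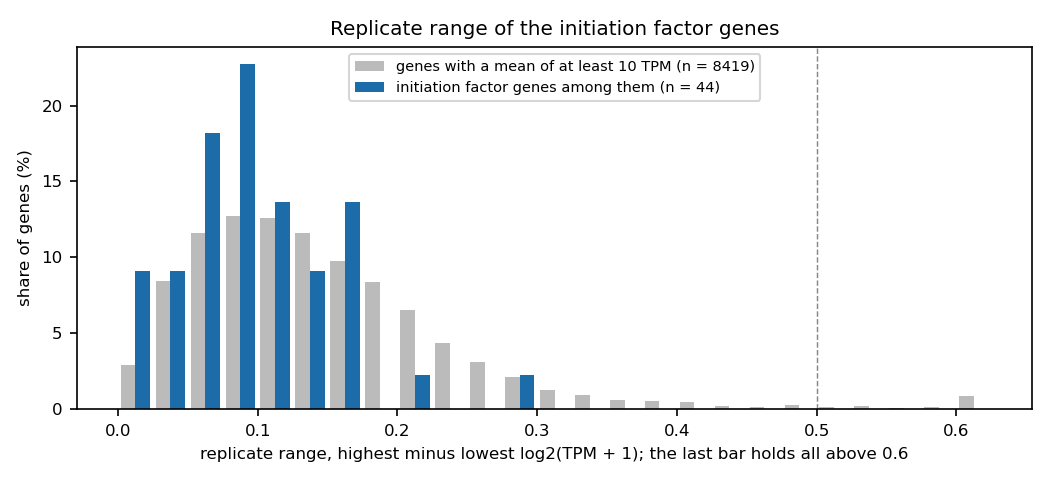
Share of genes (vertical axis, %) by replicate range, the highest minus the lowest log2(TPM + 1) over 3 libraries (horizontal axis), in the 44 members and in all 8419 genes that averaged 10 TPM or more. The dashed line marks 0.5, and the largest range of a member is 0.28. The sets were not matched for level.

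The highest library was replicate 1 in 26 members (59.1%), compared with 62.5% of the 8419 genes. It was replicate 2 in 2 (4.55%), compared with 20.3%, and replicate 3 in 16 (36.4%), compared with 17.1%. EIF5A, EIF6, EIF4EBP1 and EIF2B3 were among those highest in replicate 3. EIF4G2, EIF2S3, EIF1 and EIF3B were among those highest in replicate 1. The SDs above show how small most of these differences were. Median-of-ratios factors, which scale each library by its typical gene, were 1.034, 0.995 and 0.976 in replicates 1, 2 and 3. The counts were made in TPM without these factors, so the highest library of a member can depend on the scaling.

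The transcripts were searched for exact copies, because a read that fits several places cannot be assigned from its sequence. For 51 members GENCODE v44 gives a MANE Select transcript, a reference transcript agreed for each gene. In 37 of them no stretch of 150 bases occurred elsewhere on the main chromosomes or in the transcript of another member. In 8 members at least 10% of the stretches did. The shares were 95.1% in EIF3C, 95.0% in EIF3CL, 42.6% in EIF4E, 22.6% in EIF1AX, 22.5% in EIF4H, 19.0% in EIF5AL1, 12.8% in EIF4B and 11.8% in EIF2S2. With stretches of 50 bases, 17 members reached 10%, among them EIF4A1 (34.5%) and EIF5A (41.6%). The search was made for the members only, so no share over all genes stands beside these counts. High and low members were both found among them, and the part of shared reads in any level was not tested.

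**Figure D5:**
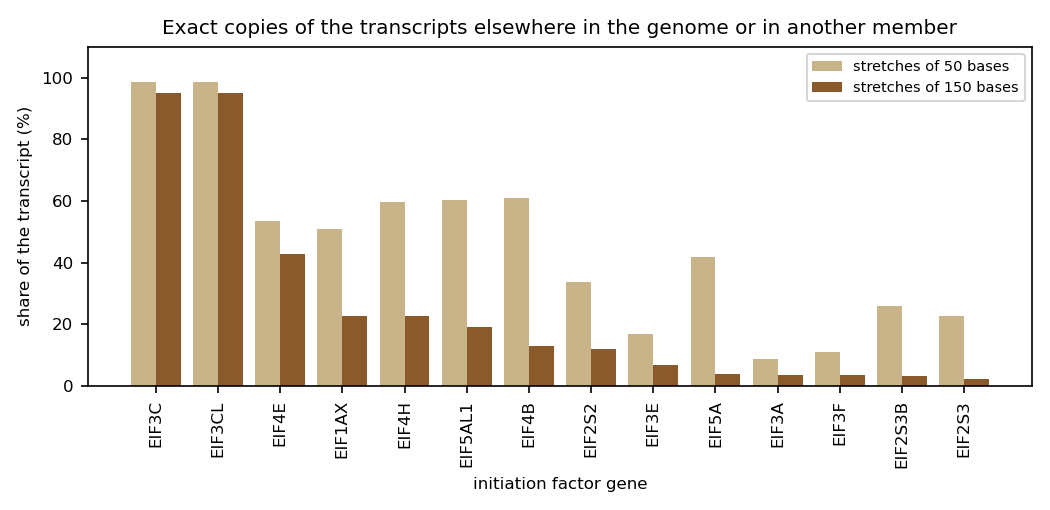
Share of the stretches of 50 and of 150 bases in a transcript (vertical axis, %) that also occurred elsewhere on the main chromosomes or in the transcript of another member, for the 14 members with any shared stretch of 150 bases. EIF3C and EIF3CL stand near 95% for 150 bases, and EIF4E follows with 42.6%.

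Other rows overlapped 28 of the 51 protein-coding members (54.9%), compared with 45.3% of the protein-coding rows. The overlap was on the opposite strand in 20 (39.2%, against 38%) and on the same strand in 13 (25.5%, against 13.6%). Small RNA rows lay within 11 members (21.6%), compared with 6.43% of the protein-coding rows. EIF4A1 lies wholly within the read-through row SENP3-EIF4A1, which had 0.524 TPM. As the strand setting is unknown, levels of genes that overlap on opposite strands are uncertain.

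RNAs that begin with a run of pyrimidines right at the cap, known as a 5′ terminal oligopyrimidine (TOP) tract, are translated under the control of mTOR and LARP1, and many encode parts of the translation machinery. RefSeq starts (GRCh38.p14) were available for 43 members. In 10 of these (23.3%) the annotated start was a C followed by at least 4 bases that were each C or T, compared with 4.6% of 15843 protein-coding genes. The median level was 152 TPM over these 10 members and 73.9 TPM over the other 33. The 15 bases on each side of the start are shown for the 8 with more than 50 TPM, with the pyrimidine run in capitals.
EIF2S3 (416 TPM, chrX:24054941-24054970, plus strand): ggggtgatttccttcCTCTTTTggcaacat
EIF4B (354 TPM, chr12:53006441-53006470, plus strand): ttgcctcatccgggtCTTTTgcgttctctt
EIF3K (251 TPM, chr19:38619173-38619202, plus strand): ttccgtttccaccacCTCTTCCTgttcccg
EIF4A2 (179 TPM, chr3:186783562-186783591, plus strand): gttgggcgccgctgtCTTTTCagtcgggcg
EIF3D (159.9 TPM, chr22:36529152-36529181, minus strand): gcgcgcgcatgtttcCTCTTTTCCTggttt
EIF3M (143 TPM, chr11:32583816-32583845, plus strand): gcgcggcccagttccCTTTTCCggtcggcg
EIF2A (92.3 TPM, chr3:150546772-150546801, plus strand): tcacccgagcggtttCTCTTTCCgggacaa
EIF3F (53.8 TPM, chr11:7987322-7987351, plus strand): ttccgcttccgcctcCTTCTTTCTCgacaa
The remaining 2 were EIF2D and EIF2S3B. EIF5A, EIF4A1 and EIF4E did not have such a start at the annotated position, and no start sites were measured in these libraries.

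The 300 bases around each start, 250 before and 50 after it, were also searched on both strands for 6 short motifs, none of which contains another. The GC box GGGCGG occurred in 30 of the 43 promoters (69.8%), compared with 58.5% of all promoters. CCGGAAG, a core bound by ETS factors, occurred in 11 (25.6%), compared with 14.2%. The E box CACGTG occurred in 10 (23.3%), compared with 8.88%, from EIF4H at 449.8 TPM to EIF4EBP3 at 0.294 TPM. CCAAT was found in 16 (37.2%, against 36.4%), TATAAA in 2 (4.65%, against 9.63%) and AAGATGGCG in 2 (4.65%, against 2.74%). As with the TOP start, the median level was higher with the motif than without it for GGGCGG (96.0 and 77.0 TPM). It was lower for CACGTG (48.9 and 95.6 TPM), CCGGAAG (73.9 and 99.6 TPM), CCAAT (73.0 and 95.6 TPM), TATAAA (89.8 and 92.3 TPM) and AAGATGGCG (23.7 and 95.6 TPM). A match describes the letters only and is not a bound site.

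The wider machinery was read from lists of other genes of the pathway. Of 42 genes, 38 had at least 10 TPM and 16 at least 100 TPM in every library, limits that 40.4% and 7.17% of the protein-coding rows reached. These shares also stand beside the counts of each list below. Of the 6 kinases and phosphatase subunits that act on eIF2 alpha, 5 had at least 10 TPM. The heme-regulated kinase gene EIF2AK1 led with 111 ± 5.49 TPM, and EIF2AK3, the sensor in the endoplasmic reticulum, had 9.72 ± 0.748 TPM. PPP1R15B and PPP1R15A, which direct the phosphatase, had 64.5 ± 7.06 and 53.0 ± 1.32 TPM. Of the 6 stress response targets, 5 had at least 10 TPM. ATF4, whose translation rises when eIF2 alpha is phosphorylated, had 237 ± 8.73 TPM, and CHAC1 had 2.07 ± 0.238 TPM.

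Of the 7 genes of mTOR signalling and the eIF4E kinases, 6 had at least 10 TPM. LARP1 had 121 ± 5.78 TPM and MTOR 35.9 ± 1.82 TPM, while RPTOR had 9.60 ± 0.197 TPM. The order in these lists can depend on the unit as well: the mean coverage was 61.9 for LARP1, 80.2 for MTOR and 57.0 for RPTOR, and 267 for ATF4 beside 603 for EIF2AK1. The eIF4E kinase genes MKNK1 and MKNK2 had 23.5 ± 0.608 and 46.4 ± 3.93 TPM. All 11 partners of the factors reached 10 TPM. Among them PABPC1, which binds the poly(A) tail and eIF4G, had 823 ± 47.1 TPM, and PDCD4, an inhibitor of eIF4A, had 114 ± 1.90 TPM. The enzymes that make hypusine on eIF5A, DHPS and DOHH, had 41.0 ± 0.595 and 33.3 ± 2.08 TPM, far below EIF5A itself. Of the 10 elongation and release factors, 9 had at least 10 TPM and 7 at least 100 TPM. EEF1A1, the carrier of aminoacyl-tRNA, had 2776 ± 96.8 TPM and EEF2, the translocase, 1803 ± 39.7 TPM. EEF1A2, the form known from muscle and brain, had 822 ± 24.3 TPM, and GSPT2 was listed at 0.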

How the data were processed

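RNA-seq was analysed in 3 libraries labelled wild-type HepG2, which form 1 condition. Per the submitters' processing notes and the methods, 150 bp paired-end reads were checked with FastQC 0.11.8, trimmed with Trim Galore 0.6.2, mapped to GRCh38 with STAR 2.6.1a and quantified with StringTie (version, annotation and strand setting not given in the sources used here). Coverage, as the authors deposited it, gives the mean depth of reads over each gene without correction for sequencing depth. Their deposited FPKM is corrected for gene length and total reads. In the deposited TPM of the authors, each library adds up to 1000000. No counts were given and depth was not estimated, so precision is the SD over libraries.

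The 43389 rows shared by the tables were joined, and the 39320 on the main chromosomes and the mitochondrial genome were used. Log ratios used a pseudocount of 1. The genes named in full included the highest and lowest expressed member of each factor by TPM and the members of the 12 pairs. They also included most of those below 1 TPM and the 3 with the largest replicate range. Further genes, such as EIF2S2, EIF3K, EIF3F, EIF3D and EIF1AX, were named outside these rules. The members and lists were chosen with earlier results of these data known. Sequences came from GENCODE v44, GRCh38 and RefSeq (GRCh38.p14). The range calculation was tested on simulated data. Alternatives were leaving out each replicate, other units, scalings, limits, filters and pseudocounts. Python 3.11.15, numpy 2.4.6, pandas 2.3.3, Biopython 1.88 and matplotlib 3.10.9 were used.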

Additional observations from a re-analysis of the deposited data

How the results depend on the processing

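The counts of members with at least 10 or 100 TPM in every library stayed within 1.5 times the reported count in every alternative run but 1: with a limit 2 times as high as 100 TPM, 13 members remained in place of 26. The percentile of the median member was 92.4 with a filter at 0.1 TPM, 96.2 with no filter and 92.4 in coverage. The spread among the eIF3 genes was 0.84 without EIF3C and EIF3CL. Of the 12 pairs, 10 had the same direction in every alternative run. In coverage, the log2 ratio turned to 0.24 for EIF4E/EIF4E2 and 0.99 for EIF4B/EIF4H, and the cause was not tested. The count of members with a range above 0.5 was 0 in every alternative run. Recomputing the share of EIF5A, the EIF3B to EIF3H ratio, the EIF2S3 to EIF2S1 ratio and the ratio of 4E-BPs to EIF4E was chosen after seeing the data. In coverage the EIF5A share was 9.97% and the EIF3B to EIF3H ratio 6.76.

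No paired analysis was possible because there is 1 condition, so samples could not be matched between conditions; genes were compared within libraries. Depth was not estimated, so the counting error of low genes is not known. The tables give 1 value per gene, so isoforms were not separated. Levels of EIF3C, EIF3CL, EIF4E and the other members with exact copies are uncertain.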
